A study of Sus scrofa with 6 samples.

Results

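Fibro-adipogenic progenitors are connective-tissue cells that lie between the fibres of skeletal muscle, and 10 genes by which they are recognised were followed here in pig muscle: PDGFRA, PDGFRB, DLK1, CD34, DPP4, THY1, DCN, LUM, PI16 and MFAP5. They were taken by gene symbol from the table of transcript levels, where all 10 were found among 31908 Ensembl genes, and the transcripts that share a gene identifier were summed. The cells are known to secrete matrix, to help muscle repair, and to become adipocytes inside the muscle under some conditions. PDGFRA marks them in several mammals, while DPP4 and PI16 mark a less committed fibroblast state. None of these genes belongs to one cell type alone: PDGFRB is also made by pericytes, CD34 by endothelial cells, and THY1 and DPP4 by some lymphocytes.

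The RNA came from longissimus dorsi (LD) muscle, taken at the junction of thoracic and lumbar spine from 6 castrated male Laiwu pigs, a fatty Chinese breed, of which 3 had extremely high (S-H: LW63, LW70 and LW119) and 3 extremely low (S-L: LW82, LW88 and LW90) intramuscular fat (IMF) content. The sources used here name no treatment. Each pig gave 1 library of ribosome-depleted, strand-specific RNA from whole tissue, and ages are not given in the sources used here. The question put to these genes is whether the progenitor program differs between muscle that holds much fat and muscle that holds little.

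Levels are FPKM, the fragments of a transcript scaled by its length and by the size of the library, so they can be set against each other between genes. The authors report the number of reads of each library. The deposited values carry no read counts per transcript, so no counting error can be given. The FPKM of all transcripts summed to between 638536 (LW119) and 846661 (LW82) per pig. The fit was made with limma on log2(FPKM + 0.1) over 12733 protein-coding genes averaging 0.1 FPKM or more. A gene was said to pass where its unadjusted p was under 0.01 and its log2 fold change was 1 or more in either direction. With these thresholds 1.36% of the tested genes passed, 1.17% higher and 0.188% lower in S-H pigs. After Benjamini-Hochberg (BH) adjustment 0 genes lay below 0.05, against 1038 before it, and every adjusted p given here is BH-adjusted over all features of its fit. Most genes leaned to one side: 74.1% had a log2 fold change above 0 (S-H over S-L), and the median over all tested genes was 0.21. DES (desmin), a muscle fibre gene, was high in every pig, with 2280, 4053 and 4830 FPKM in the S-H pigs and 1431, 2629 and 2213 FPKM in the S-L pigs.

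None of the 9 progenitor genes that could be tested passed, and the S-H and S-L pigs overlapped for every one of these 9, against 14.8% of all tested genes whose groups did not overlap. Of the 9, 7 had a higher and 2 a lower fitted level in S-H pigs, with a median log2 fold change of 0.36. The median was 0.61 without LW70, 0.22 without LW63, 0.18 without LW90, 0.14 with median-ratio size factors and 0.13 after quantile normalization. The share of 7 in 9 lies close to the 74.1% of all tested genes above 0. Without LW70, 5 of the 9 (PDGFRA, PDGFRB, DPP4, THY1 and LUM) had no overlap, against 29.3% of all tested genes then, and without LW88 it was 2 (THY1 and LUM), against 27.6%. By limma, 1 of the 9, THY1, had an unadjusted p below 0.05, against 8.15% of all tested genes. In whole muscle, fewer cells of a type and less RNA per cell cannot be told apart, and this holds for every level given here.

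**Figure D1:**
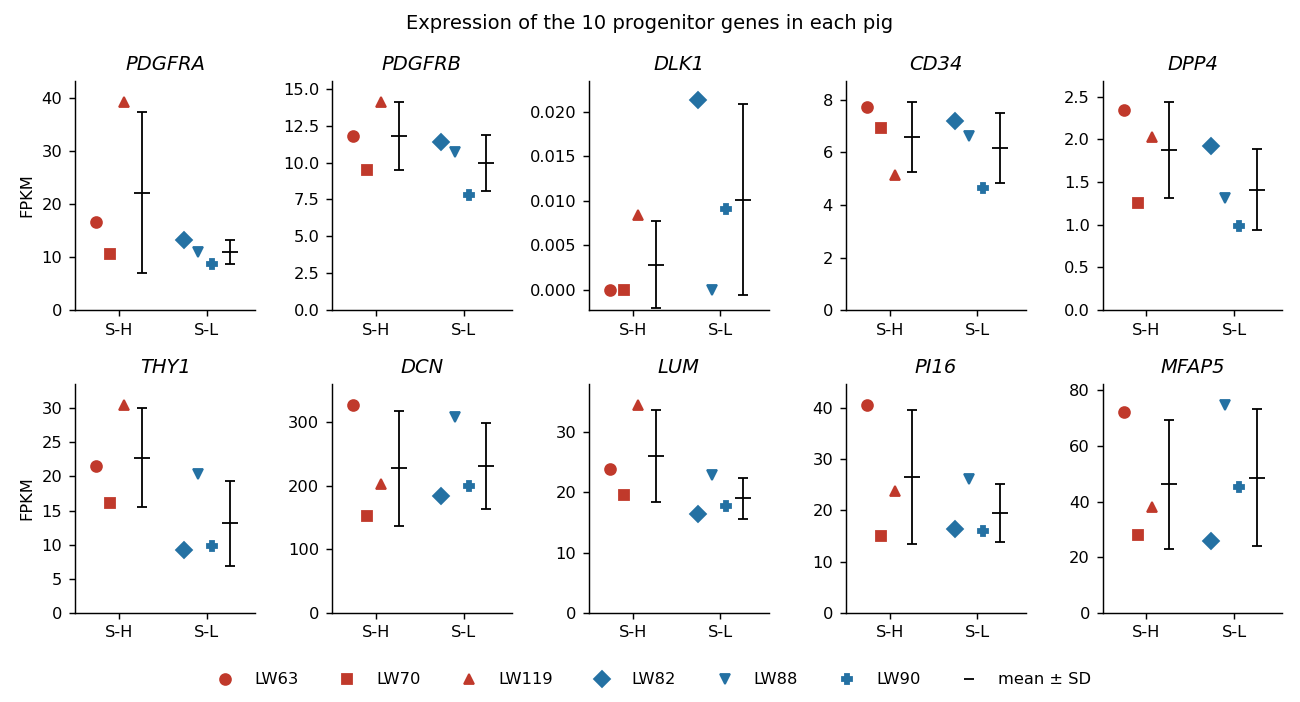
FPKM of the 10 genes in each of the 6 pigs (vertical axes, 1 scale per gene), with S-H pigs in red, S-L pigs in blue, 1 symbol per pig and the mean ± SD of 3 pigs in black. No gene separates the groups: PDGFRA is highest in LW119 at 39.3 FPKM, DCN and MFAP5 are high in 1 pig of each group, and DLK1 does not exceed 0.0213 FPKM.

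PDGFRA and PDGFRB are the receptor tyrosine kinases for platelet-derived growth factors. PDGFRA (ENSSSCG00000008841, chr8:40967493-41021442, Sus scrofa 11.1) stood at 16.7 FPKM in LW63, 10.5 in LW70 and 39.3 in LW119, and at 13.2 FPKM in LW82, 11.0 in LW88 and 8.80 in LW90. The high S-H mean came from LW119, and LW70 lay inside the range of the S-L pigs. The means were 22.2 ± 15.2 FPKM in S-H and 11.0 ± 2.18 FPKM in S-L (SD, n = 3 each). The fitted log2 fold change was 0.81 (SE 0.42, 95% interval -0.14 to 1.75, BH-adjusted p = 0.621). It fell to 0.29 without LW119, and without LW70 it passed the thresholds, at 1.23, when 2% of tested genes passed. With all pigs it was 0.59 with median-ratio size factors, 0.67 after quantile normalization and 0.94 in TPM.

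PDGFRB (ENSSSCG00000022741, chr2:151155754-151192647) moved over a narrower range. It was measured at 11.8 FPKM in LW63, 9.46 in LW70 and 14.1 in LW119, against 11.4 FPKM in LW82, 10.7 in LW88 and 7.83 in LW90. LW119 was again highest and LW90 lowest, and the 6 pigs came in the same order for both receptors. The log2 fold change was 0.24 (SE 0.26, 95% interval -0.35 to 0.82, BH-adjusted p = 0.796), an interval that reaches from a fold of 0.787 to a fold of 1.77. It was 0.02 with median-ratio size factors, 0.08 after quantile normalization and 0.37 in TPM. PDGFRA exceeded PDGFRB in every pig, by 2.79 times in LW119, 1.41 times in LW63 and between 1.02 and 1.16 times in the other 4. The exact two-sided permutation p for this ratio between groups was 0.3, where 3 pigs against 3 cannot give less than 0.1.

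The ligands of these receptors were read beside them. Of the 4 platelet-derived growth factor genes, 3 were tested and none passed by limma, at either the thresholds or an unadjusted p below 0.05, with a median log2 fold change of 0.09. PDGFC, which binds PDGFRA, was measured at 3.09, 3.76 and 3.27 FPKM in LW63, LW70 and LW119 (S-H), and at 8.80, 1.71 and 4.81 FPKM in LW82, LW88 and LW90 (S-L). The S-L pigs thus lay on both sides of the S-H pigs (log2 fold change -0.31, adjusted p = 0.866). PDGFD, a ligand of PDGFRB, ranged from 4.17 to 7.49 FPKM with a log2 fold change of 0.18 (adjusted p = 0.862). PDGFB has no protein-coding match in the RefSeq table and was not tested.

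CD34, THY1 and DPP4 are the cell-surface proteins used to sort these cells. CD34 (ENSSSCG00000039946, chr9:134913121-134937762) encodes a sialomucin of progenitor and vessel cells. Its levels were 7.72 FPKM in LW63, 6.94 in LW70 and 5.13 in LW119, and 7.20 FPKM in LW82, 6.61 in LW88 and 4.65 in LW90. The ranges lay almost on top of each other, with 6.60 ± 1.33 FPKM in S-H and 6.15 ± 1.33 FPKM in S-L. The log2 fold change of 0.10 (SE 0.28, 95% interval -0.51 to 0.72, adjusted p = 0.922) depended on the scaling of the libraries, at -0.11 with median-ratio size factors, -0.10 after quantile normalization and 0.24 in TPM. An assembled antisense transcript lies inside the CD34 span (chr9:134913130-134918382). It was low, with 0.412, 0.225 and 0.181 FPKM in the S-H pigs and 0.183, 0.0746 and 0.108 FPKM in the S-L pigs (transcript log2 fold change 0.73, adjusted p = 0.859).

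THY1 (ENSSSCG00000032330, chr9:46607494-46612269), also called CD90, is a membrane-anchored glycoprotein of fibroblasts. It stood at 21.5 FPKM in LW63, 16.1 in LW70 and 30.6 in LW119, and at 9.14 FPKM in LW82, 20.4 in LW88 and 9.87 in LW90. LW88 lay above LW70, and the other 2 S-L pigs lay below every S-H pig. The means were 22.8 ± 7.28 FPKM in S-H and 13.1 ± 6.28 FPKM in S-L. Of the 9 genes, THY1 had the highest log2 fold change, 0.84 (SE 0.36, 95% interval 0.05 to 1.63, BH-adjusted p = 0.608), and the exact permutation p of its mean FPKM was 0.2. Without LW88 it passed, at 1.20, when 1.7% of tested genes passed. Without LW82, LW119, LW90 or LW63 the value was 0.63, 0.60, 0.68 or 0.85, and its unadjusted p was then above 0.05. The unadjusted p was also above 0.05 with median-ratio size factors (0.62), after quantile normalization (0.72), without a variance trend and with no minimum on the mean.

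DPP4 (ENSSSCG00000015894, chr15:68660849-68743818) encodes a dipeptidyl peptidase of the cell surface. It was the lowest of the 9 tested genes, with 2.35 FPKM in LW63, 1.25 in LW70 and 2.03 in LW119, against 1.92 FPKM in LW82, 1.32 in LW88 and 0.988 in LW90. Each group held pigs near 2 and pigs near 1 FPKM. The log2 fold change was 0.39 (SE 0.35, 95% interval -0.39 to 1.17, adjusted p = 0.747). It was 0.18 with median-ratio size factors, 0.13 after quantile normalization and 0.53 in TPM. Assembled transcripts of the neighbouring SLC4A10 overlap its span, and the largest of them, SLC4A10-OT2, reached 1.90 FPKM in LW82 and at most 0.151 FPKM in the other 5 pigs.

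DLK1 (ENSSSCG00000035805, chr7:121565854-121576654), a membrane and secreted inhibitor of adipocyte formation that marks preadipocytes, was close to 0 in every pig. It was listed at 0 in LW63, LW70 and LW88, at 0.00846 FPKM in LW119, at 0.0213 FPKM in LW82 and at 0.00912 FPKM in LW90. Only DLK1-203, of 5 annotated transcripts, had any value above 0. The gene stayed below the minimum of 0.1 FPKM and was not tested, so no fold is given. DLK1 lies in an imprinted cluster. Of 4 other genes of the cluster in the table, WDR25, at 1.27 to 1.89 FPKM, and DIO3 were tested and neither passed, and the other 2 averaged less than 0.1 FPKM. DIO3, which inactivates thyroid hormone, was measured at 0.846, 0.876 and 0.985 FPKM in the S-H pigs and at 0.495, 0.601 and 0.40 FPKM in the S-L pigs. Its groups did not overlap (log2 fold change 0.75, 95% interval 0.05 to 1.46, BH-adjusted p = 0.608), against 14.8% of all tested genes. DIO3 is listed on a separate scaffold and not on the chromosome of DLK1. Its position relative to DLK1 therefore cannot be read from these coordinates.

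**Figure D2:**
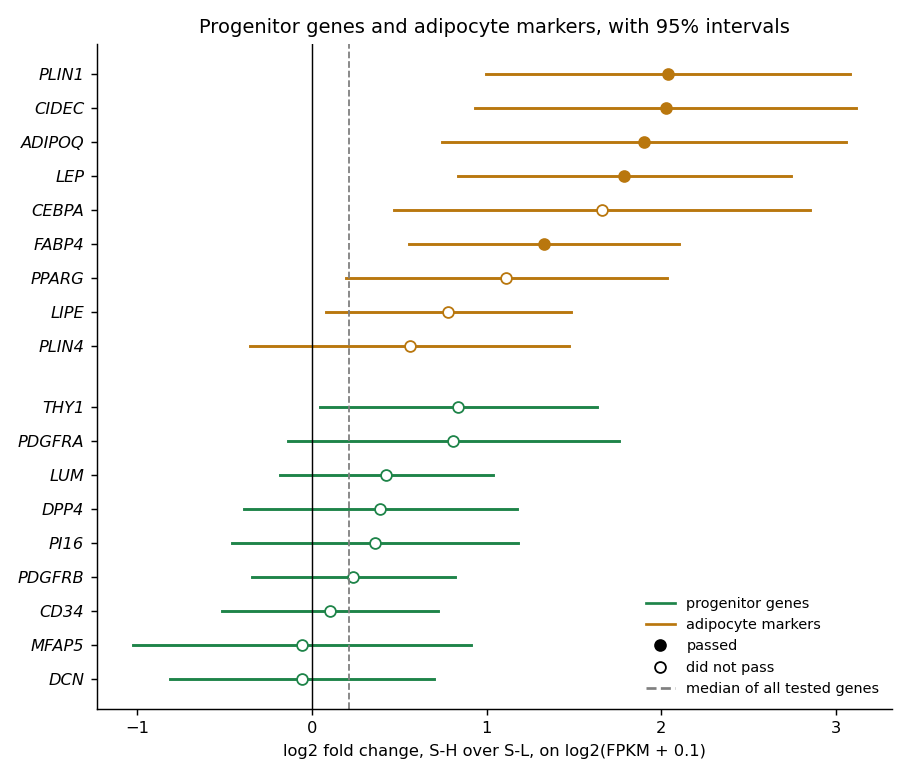
Log2 fold change (S-H over S-L, horizontal axis, on log2(FPKM + 0.1)) of the 9 tested progenitor genes in green and of 9 adipocyte markers in orange, with 95% intervals; filled points passed and the dashed line is the median of all tested genes, 0.21. The progenitor genes lie between -0.06 and 0.84 and none is filled, while the adipocyte markers lie between 0.56 and 2.04 and 5 are filled.

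DCN (decorin) and LUM (lumican) are small leucine-rich proteoglycans that bind collagen fibrils, and their genes are neighbours on chromosome 5, 34649 bases apart. DCN (ENSSSCG00000000915, chr5:91678608-91714235) was the most abundant of the 10 genes. It reached 327.5 FPKM in LW63, 151.6 in LW70 and 201.9 in LW119, and 184.1 FPKM in LW82, 308.3 in LW88 and 199.1 in LW90. The spread within each group was far wider than the gap between means, 227.0 ± 90.6 FPKM in S-H and 230.5 ± 67.8 FPKM in S-L. The log2 fold change was -0.06 (SE 0.34, adjusted p = 0.966), and its 95% interval allows a fold between 0.569 and 1.62. The sign was not stable, since the value was 0.076 on the TPM scale, where each library is brought to the same total. It was -0.28 both with median-ratio size factors and after quantile normalization.

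LUM (ENSSSCG00000000916, chr5:91748885-91757615) did not follow its neighbour pig by pig. It stood at 23.9 FPKM in LW63, 19.6 in LW70 and 34.6 in LW119, and at 16.5 FPKM in LW82, 22.8 in LW88 and 17.7 in LW90. LW119 was highest for LUM, whereas LW63 was highest for DCN. The log2 fold change was 0.43 (SE 0.27, 95% interval -0.18 to 1.04, adjusted p = 0.665), and the means were 26.0 ± 7.70 FPKM in S-H and 19.0 ± 3.36 FPKM in S-L. This fold change was 0.21 with median-ratio size factors, 0.30 after quantile normalization and 0.56 in TPM.

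The other small leucine-rich proteoglycans leaned the same way as LUM without passing. All 10 tested genes of that list (DCN and LUM are not in it) had a log2 fold change above 0, where 74.1% of all tested genes did, and none passed. Their median was 0.53 against 0.21 over all tested genes. It was 0.32 without LW63, 0.79 without LW70 and 0.31 with median-ratio size factors. ECM2, a matrix protein of adipose and other tissues, was measured at 26.1, 14.0 and 19.9 FPKM in LW63, LW70 and LW119 and at 11.5, 12.4 and 8.94 FPKM in LW82, LW88 and LW90. Every S-H pig lay above every S-L pig (log2 fold change 0.83, 95% interval 0.20 to 1.46, BH-adjusted p = 0.580). ASPN (asporin), named after its values were seen, was the other of 2 genes in the list of 10 whose groups did not overlap, against 14.8% of all tested genes. It was measured at 9.64, 7.15 and 6.29 FPKM in S-H against 4.40, 5.51 and 5.30 FPKM in S-L (log2 fold change 0.58, adjusted p = 0.608). OGN (osteoglycin) ranged from 9.66 to 20.1 FPKM, with LW63 highest and a log2 fold change of 0.48 (adjusted p = 0.650). PODNL1, below 0.4 FPKM throughout, had a log2 fold change of 0.73 (adjusted p = 0.657). The summed level of the list was 47.2 to 84.1 FPKM in S-H pigs and 42.8 to 47.4 FPKM in S-L pigs, and the highest pig was LW63 for 6 and LW119 for 4 of the 10.

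MFAP5 (ENSSSCG00000031712, chr5:62742315-62759190) is a glycoprotein of the microfibrils on which elastic fibres form. It was measured at 72.3 FPKM in LW63, 28.1 in LW70 and 38.2 in LW119, and at 25.8 FPKM in LW82, 74.9 in LW88 and 45.2 in LW90. LW63 and LW88, 1 pig of each group, stood apart from the other 4, as they did for DCN. The log2 fold change was -0.06 (SE 0.43, adjusted p = 0.974), with a 95% interval from -1.02 to 0.91, the widest of the 9 genes. As for DCN, the sign turned on the TPM scale, to 0.077, while the value was -0.28 with median-ratio size factors and -0.19 after quantile normalization.

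Other microfibril and elastic-fibre genes were mixed. Of 17 tested, 13 had a log2 fold change above 0 and 4 below, none passed, and the median of 0.33 fell to -0.01 without LW119 and to 0.16 without LW90. FBN1 (fibrillin-1), the main microfibril protein, reached 42.0, 27.4 and 59.2 FPKM in LW63, LW70 and LW119 against 38.8, 44.7 and 29.0 FPKM in LW82, LW88 and LW90, with overlap between groups (log2 fold change 0.15, adjusted p = 0.906). FBLN2 (fibulin-2) was highest in LW119 at 45.8 FPKM and lowest in LW70 at 12.8 FPKM (log2 fold change 0.41, adjusted p = 0.770). EFEMP1 (fibulin-3) had the largest log2 fold change of the list, 0.86 (BH-adjusted p = 0.608), with 9.33, 5.52 and 7.70 FPKM in S-H and 4.40, 6.06 and 2.40 FPKM in S-L. LTBP2, a binding protein of microfibrils, had a log2 fold change of 0.79 (adjusted p = 0.659), with LW119 at 4.27 FPKM and the other 5 pigs at 0.757 to 1.69 FPKM. LTBP4, MFAP4 and EFEMP2, named after their values were seen, were the 3 of 17 genes whose groups did not overlap, a share near the 14.8% of all tested genes. LTBP4, which anchors latent TGF-beta, was lower in every S-H pig, with 12.4, 11.3 and 7.77 FPKM against 16.6, 14.8 and 13.9 FPKM (log2 fold change -0.55, adjusted p = 0.614). MFAP4 and EFEMP2 were higher in every S-H pig, with log2 fold changes of 0.66 (adjusted p = 0.619) and 0.33 (adjusted p = 0.701).

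PI16 (ENSSSCG00000001570, chr7:32600759-32614965), a cysteine-rich secretory protein that marks fibroblasts found in many tissues, stood at 40.7 FPKM in LW63, 15.0 in LW70 and 23.9 in LW119. In the S-L pigs it stood at 16.3 FPKM in LW82, 26.1 in LW88 and 16.1 in LW90. LW63 was far above the other 5 pigs, and LW70 was the lowest of the 6. The log2 fold change was 0.36 (SE 0.37, 95% interval -0.45 to 1.18, adjusted p = 0.778), and it was -0.0047 without LW63. With all pigs it was 0.14 with median-ratio size factors, 0.24 after quantile normalization and 0.50 in TPM.

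Ordered by mean FPKM over the 6 pigs, the genes ran DCN, MFAP5, PI16, LUM, THY1, PDGFRA, PDGFRB, CD34, DPP4 and DLK1, from 228.7 to 0.00648 FPKM. DCN lay above MFAP5, and MFAP5 above PI16, in 6 of 6 pigs. PI16 and LUM, with means of 23.0 and 22.5 FPKM, did not differ beyond their spread, since PI16 was the higher one in only 2 pigs. THY1 and PDGFRA changed places as well, with THY1 higher in 4 of 6 pigs. Every other pair of neighbours kept its order in all 6 pigs.

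The genes differed in which pig stood highest. LW119 was highest for PDGFRA, PDGFRB, THY1 and LUM, and LW63 for CD34, DPP4, DCN and PI16. MFAP5 was highest in LW88, with LW63 close behind. Over all tested genes, LW119 was highest for 30.6% and LW63 for 23.7%, so both pigs lead often. Across the 6 pigs, LUM and THY1 came in the same order (Pearson r = 0.94, Spearman rho = 1 on log2 levels), and DCN and MFAP5 moved together (r = 0.94, rho = 0.83), as did DCN and PI16 (r = 0.89, rho = 0.94). PDGFRA and MFAP5 were nearly unrelated (r = -0.03, rho = -0.03). Of the 36 pairs, 33 had r above 0, with a median of 0.44. These r values describe 6 pigs whose libraries, groups and scaling are shared by every gene, and they carry no test.

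**Figure D3:**
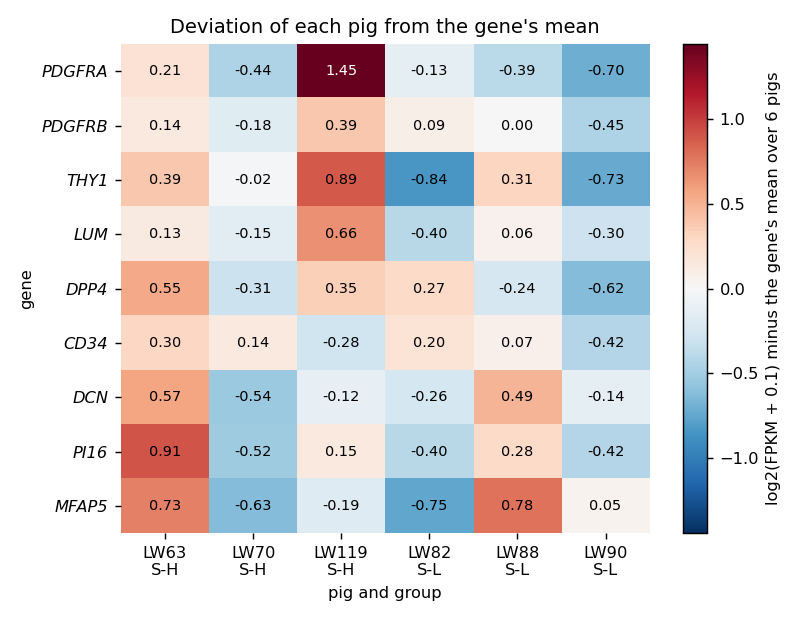
Deviation of log2(FPKM + 0.1) from the gene's mean over the 6 pigs for the 9 tested genes (rows), by pig and group (columns), red above and blue below the mean. PDGFRA is 1.45 above its mean in LW119, DCN, PI16 and MFAP5 are raised in LW63 and LW88, and LW70, an S-H pig, lies below the mean for 8 of the 9 genes.

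A ratio within a pig does not depend on how libraries are scaled, so each gene was also taken relative to DCN. PI16 was the only one of 8 genes for which every S-H pig lay above every S-L pig. Its log2 ratio to DCN was -3.01, -3.33 and -3.08 in LW63, LW70 and LW119, and -3.49, -3.56 and -3.62 in LW82, LW88 and LW90. The difference was 0.42, with an exact two-sided permutation p of 0.1, the smallest that 3 against 3 allows, and a BH-adjusted p of 0.533 over the 8 ratios. Relative to the mean log2 level of the other members the PI16 difference was 0.03 and its groups overlapped (exact permutation p = 1). The mean log2 ratio of MFAP5 to DCN was -2.33 ± 0.14 in S-H and -2.34 ± 0.43 in S-L (exact permutation p = 1). The THY1 ratio differed by 0.90 (exact permutation p = 0.2) and the PDGFRA ratio by 0.87 (exact permutation p = 0.3), both with overlap.

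The 10 genes have 37 annotated transcripts, of which 27 were above 0 in some pig and 18 were tested in a limma fit over 40336 transcripts, where 1.25% passed. None of the 18 passed, 13 had a log2 fold change above 0, and THY1-201 was the 1 transcript with an unadjusted p below 0.05 (log2 fold change 0.96, adjusted p = 0.848). THY1-203 was the 1 transcript with no overlap between groups, against 11.3% of all tested transcripts. It was low, with 0.219, 0.238 and 0.429 FPKM in the S-H pigs and 0.106, 0.110 and 0 FPKM in the S-L pigs (adjusted p = 0.848).

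For PDGFRB and DCN the transcript that carried the gene changed from pig to pig, across the groups. PDGFRB-201 carried 88.7% to 92.9% of the gene's FPKM in LW63, LW119, LW82 and LW90 and was listed at 0 in LW70 and LW88. In those 2 pigs, 1 of each group, PDGFRB-202 carried 100% of it. Both transcripts start and end within 10 bases of each other, with spans of 36884 and 36892 bases, and the gene sums of 9.46 and 10.7 FPKM in LW70 and LW88 lay inside the range of the other 4 pigs. DCN-208 carried 93.1% of DCN in LW63, between 28.3% and 31.0% in LW119, LW82 and LW88, and was listed at 0 in LW70 and LW90, where DCN-201 carried the whole. Taking the transcript with the highest mean alone, DCN-201, the DCN log2 fold change was -1.15, set by its 22.4 FPKM in LW63, against -0.06 for the gene sum. How the quantifier divided reads between such transcripts was not tested.

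**Figure D4:**
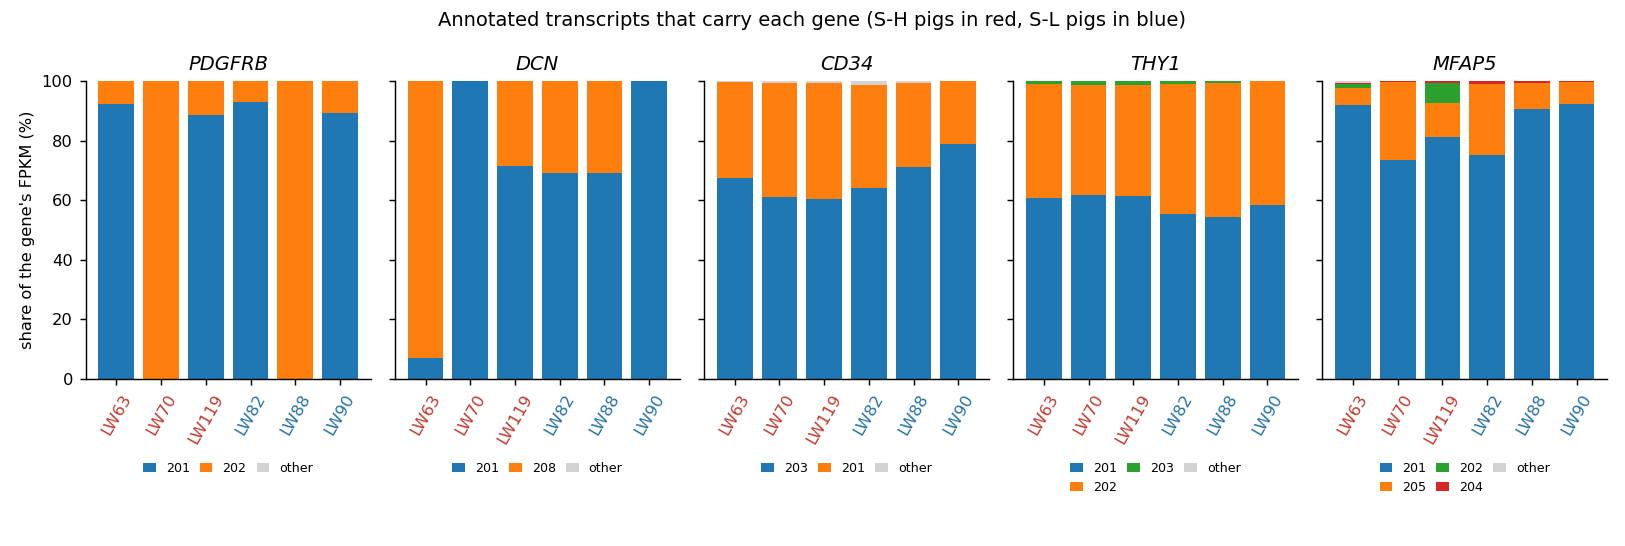
Share of each gene's FPKM (vertical axis, %) carried by its tested annotated transcripts in each pig, with S-H pigs named in red and S-L pigs in blue; colours are transcript numbers, and grey is all other transcripts. PDGFRB-202 carries 100% in LW70 and LW88, and DCN-208 carries 93.1% in LW63, so the changes follow single pigs and not the groups.

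The other 7 tested genes kept 1 leading transcript in all 6 pigs. CD34-203, which spans only 3274 bases at one end of the gene, carried 60.3% to 79.0% of CD34, and the full-length CD34-201 carried 21.0% to 39.0%. THY1-201 carried 54.2% to 61.7% of THY1, and PDGFRA-201 94.4% to 98.9% of PDGFRA. MFAP5-201 carried 73.6% to 92.3% of MFAP5. MFAP5-202 was above 0 in 2 S-H pigs, reaching 1.07 FPKM in LW63 and 2.59 FPKM in LW119. LW70 and every S-L pig had it at 0 (adjusted p = 0.848). Without LW70, the only S-H pig at 0, MFAP5-202 was the 1 transcript of these genes that passed. Leaving out that pig by itself removed the overlap of its groups, so no result is drawn from this pass. In that setting 628 of all tested transcripts passed, against 503 (1.25% of 40336) with every pig.

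Broader fibroblast and progenitor genes split evenly in direction, where 74.1% of all tested genes had a log2 fold change above 0. Of 25 listed genes, 22 were tested, with 11 above 0 and 11 below. None passed and none had an unadjusted p below 0.05 by limma. The median was -0.01 against 0.21 over all tested genes, and -0.22 against 0.01 with median-ratio size factors. GSN (gelsolin), named after its values were seen, was the highest of the list at 475.6 to 807.3 FPKM. It has no protein-coding match in the RefSeq table and was not among the 22. COL3A1 (type III collagen), the gene of the list with the largest change, was measured at 219.6, 113.2 and 326.5 FPKM in LW63, LW70 and LW119 and at 123.9, 156.4 and 95.3 FPKM in LW82, LW88 and LW90. LW70 lay inside the S-L range (log2 fold change 0.71, adjusted p = 0.627). FSTL1, a secreted follistatin-like protein, ranged from 53.6 to 98.0 FPKM and was also highest in LW119 (log2 fold change 0.37, adjusted p = 0.716). ADAM12, a protease of activated fibroblasts, was below 0.3 FPKM in 5 pigs and at 0.916 FPKM in LW90 (log2 fold change -0.65, adjusted p = 0.745).

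Adipocyte markers passed in the same libraries. All 9 tested had a log2 fold change above 0, against 74.1% of all tested genes, with a median of 1.66. Of the 9, 5 passed, all higher in S-H pigs, where 1.17% of all tested genes did. For 8, every S-H pig lay above every S-L pig, against 13.1% of all tested genes. The 5 were ADIPOQ (1.90), PLIN1 (2.04), FABP4 (1.33), CIDEC (2.02) and LEP (1.79), each with a BH-adjusted p between 0.462 and 0.540 by limma. LW63 was highest for all 9, and the summed level was 461.0 to 1343 FPKM in S-H pigs and 259.3 to 387.9 FPKM in S-L pigs. The mean log2 level of the 9 progenitor genes minus that of the 9 adipocyte markers was -1.27 in LW63, -0.88 in LW70 and 0.18 in LW119, and 0.02 in LW82, 0.63 in LW88 and 0.75 in LW90. LW119 lay inside the S-L range of this difference, since its adipocyte markers were the lowest of the S-H pigs and its progenitor genes were high.

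**Figure D5:**
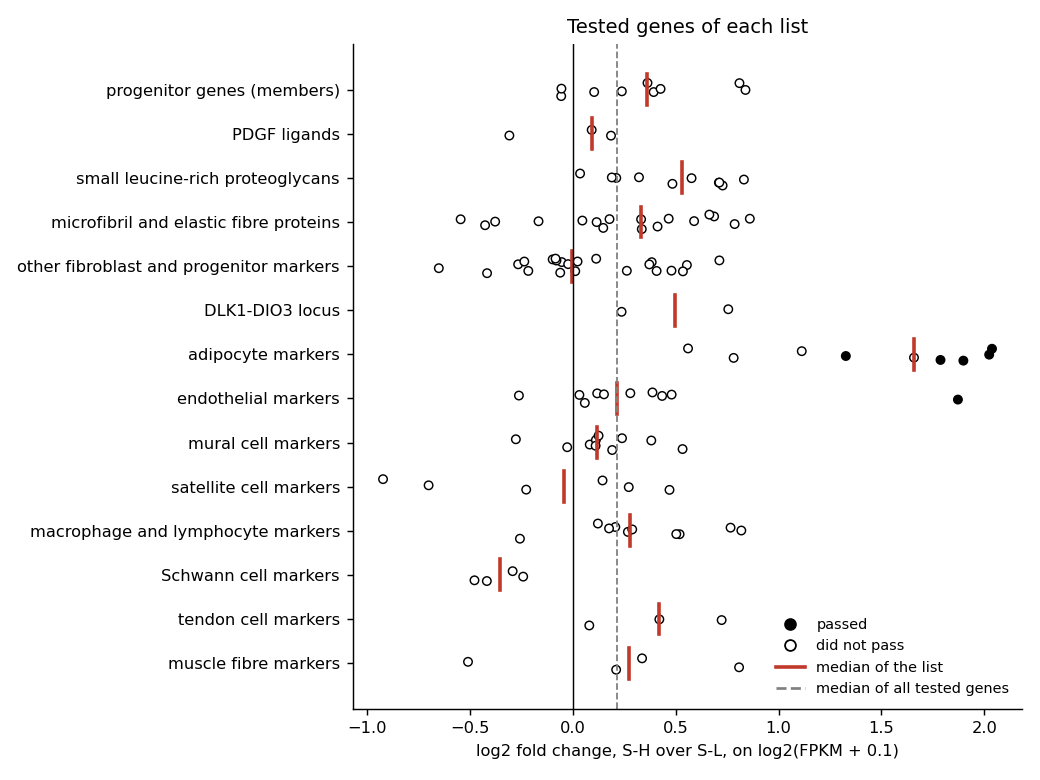
Log2 fold change (S-H over S-L, horizontal axis, on log2(FPKM + 0.1)) of each tested gene, by gene list (rows); filled points passed, red bars are list medians, and the dashed line is the median of all tested genes, 0.21. Filled points occur among the adipocyte markers (5) and the endothelial markers (1, CLDN5), and the progenitor genes have a median of 0.36 and no filled point.

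Markers of other cells that could add to these levels were read in the same way. Of 10 endothelial markers, which share CD34 with the progenitors, 9 had a log2 fold change above 0, against 74.1% of all tested genes. The median was 0.21. CLDN5, a tight-junction claudin, was the 1 that passed, at 1.87 (BH-adjusted p = 0.414), where 1.17% of all tested genes passed higher in S-H. For 3 of the 10 endothelial markers every S-H pig lay above every S-L pig, against 13.1% of all tested genes. Their summed level was 152.8 to 168.9 FPKM in S-H and 97.8 to 139.0 FPKM in S-L. None of the 10 mural cell markers, which share PDGFRB, passed. Their median was 0.12, and their summed levels were 186.8 to 287.6 FPKM in S-H and 186.9 to 224.1 FPKM in S-L. CSPG4 (NG2), a pericyte proteoglycan, was higher in every S-H pig, with 1.99, 2.10 and 3.32 FPKM against 1.81, 1.79 and 1.34 FPKM (log2 fold change 0.53, adjusted p = 0.643). It was the only 1 of the 10 mural markers whose groups did not overlap, against 14.8% of all tested genes.

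Most leukocyte markers were highest in the pig that was also highest for PDGFRA and THY1. Of 10 macrophage and lymphocyte markers, 6 were highest in LW119, where 30.6% of all tested genes were highest, and none passed. Their median was 0.28. It was 0.80 without LW70, 0.09 without LW119 and 0.15 without LW63. Their sum was 35.2 to 88.4 FPKM in S-H and 38.1 to 61.1 FPKM in S-L. AIF1, a macrophage calcium-binding protein, was measured at 13.3 FPKM in LW119 and at 2.82 to 8.29 FPKM in the other 5 pigs (log2 fold change 0.77, adjusted p = 0.636). Among tendon markers, THBS4, a matrix thrombospondin, was measured at 97.5 FPKM in LW119 and at 19.7 to 47.8 FPKM elsewhere, while SCX and MKX were highest in LW63. None of the 3 tested tendon genes passed, with a median of 0.42 and sums of 24.4 to 98.2 FPKM in S-H and 20.1 to 48.3 FPKM in S-L. TNMD and COMP, 2 defining tendon markers, were at 0 in at least 1 pig. The part of these cells in the levels of the progenitor genes was not tested.

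The remaining lists were close to the median of all genes or below it. Satellite cell markers, 6 tested, had a median of -0.04 and none passed. Among them, PAX7, the transcription factor of muscle stem cells, was measured at 1.07, 0.770 and 1.96 FPKM in S-H and at 3.19, 1.36 and 2.87 FPKM in S-L (log2 fold change -0.92, adjusted p = 0.609). Schwann cell markers, 4 tested, all had a log2 fold change below 0 with a median of -0.36, none passed, and their sums of 5.03 to 15.9 FPKM in S-H overlapped the 8.70 to 14.1 FPKM in S-L. Muscle fibre markers, 4 tested of 8 listed, had a median of 0.27 and none passed. TTN, MYH1 and MYH2 of that list were not found by symbol. By limma, none of these tested genes had an unadjusted p below 0.05. ACTA1 (skeletal actin), named after its values were seen, has no protein-coding match in the RefSeq table and was not among the 4. It was measured at 447.5, 621.1 and 895.3 FPKM in LW63, LW70 and LW119 and at 1266, 858.7 and 1731 FPKM in LW82, LW88 and LW90. In the fit over all annotated genes ACTA1 had a log2 fold change of -0.97 with an unadjusted p below 0.05, opposite in sign to the median of its list.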

How the data were processed

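Ribosome-depleted RNA of LD muscle from 6 pigs (3 S-H, 3 S-L) was sequenced. The authors aligned reads with HISAT2 to Sus scrofa 11.1 and quantified transcripts with StringTie. The table they deposited gives 83119 transcripts in FPKM, of which 21104 Ensembl transcripts without a symbol are listed on the TPM scale, as the values show; these were put on the FPKM scale by 1 factor per pig (0.639 to 0.847). All 10 progenitor genes were deposited in FPKM. FPKM were summed per gene, and 17075 genes were protein-coding by RefSeq (by symbol, or by 50% reciprocal overlap). Since FPKM are not counts, S-H and S-L were compared with limma 3.58.1 (R 4.3.3, variance trend) on log2(FPKM + 0.1), so folds of low genes are understated; BH adjustment covered all 12733 tested genes. Intervals are 95% intervals of that fit. For single FPKM values and ratios, all assignments of the 6 pigs were enumerated (exact permutation, two-sided). Python 3.11.15 was used otherwise. On simulated data of 12733 genes the fit recovered 91.5% of 200 genes changed by a log2 fold change of 2, and 0.582% of unchanged genes passed. Recovery at smaller log2 fold changes, such as those of the tested progenitor genes, was not tested.

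The genes and lists (PDGF ligands, small leucine-rich proteoglycans, microfibril proteins, other fibroblast markers, DLK1-DIO3 locus, and markers of adipocytes, endothelial, mural, satellite, immune, Schwann, tendon and muscle cells) were chosen with earlier results of these data known. Named were all 10 genes, the tested gene nearest each in pattern (not reported here for PDGFRB and PI16), and from each list the genes that passed, the 2 largest changes and the 2 highest means; of these the ones that carry each list's description are printed. Alternatives were other pseudocounts, minima, scalings, variance models, gene sets and single transcripts, and leaving out each pig. Each library is 1 animal, so the p-values set group differences against the spread between pigs. In that spread, variation of animals and of libraries cannot be told apart. Limma also draws each gene's variance toward a trend over all tested genes.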

Additional observations from a re-analysis of the deposited data

How the results depend on the processing

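No progenitor gene passed under 17 of 19 alternatives; leaving out each pig gave 0 to 1 passing, PDGFRA without LW70 and THY1 without LW88. The number of these genes with no overlap was 0 to 5 over those settings: PDGFRA, PDGFRB, DPP4, THY1 and LUM without LW70 (29.3% of all tested genes then) and THY1 and LUM without LW88 (27.6%). For member transcripts the number that passed was 0 to 1. The direction of 4 genes turned. CD34 was at -0.11 with median-ratio size factors, -0.10 after quantile normalization and -0.071 for its highest transcript, with -0.083 to 0.27 when a pig was left out. DCN was at 0.076 on the TPM scale and -0.36 to 0.20 when a pig was left out; MFAP5 was at 0.077 and -0.45 to 0.32, and PI16 went from -0.0047 to 0.71. Relative to the mean of the other members instead of DCN, the differences of PDGFRB, CD34 and MFAP5 were -0.11, -0.27 and -0.45. The cause was not tested. Size factors moved the median of all tested genes from 0.21 to 0.01, so a fold on FPKM holds that shift. Over all tested genes 173 passed (149 higher, 24 lower); 77 passed with a pseudocount of 1, 260 in TPM and 86 to 261 when a pig was left out, and the split was 81 higher and 55 lower with size factors and 68 and 60 after quantile normalization. Of all tested transcripts 503 passed, 227 with a pseudocount of 1 and 181 with a minimum of 1 FPKM. DLK1 enters the fit only with no minimum, where it did not pass. Read counts per gene are not given. With 3 pigs a group the upper fold bounds of the 9 genes ran from 1.62 to 3.37, and 8 of the 9 intervals, THY1 apart, hold 0. No paired analysis was possible because the groups hold different animals and the labels give them no shared numbers.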

Other observations

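For 7 of the 9 tested genes, the gene with the most similar level over the 6 pigs is given here, out of 11475 tested genes with a symbol. The nearest to PDGFRA was LCP1 (L-plastin, an actin bundler of leukocytes; Pearson r = 0.997, Spearman rho = 0.94), at 4.82 FPKM in LW119 and 0.935 to 2.01 FPKM in the other pigs. The nearest to THY1 was SARS1 (seryl-tRNA synthetase; r = 0.997), and the nearest to LUM was GALNT7 (r = 0.998). MFAP5 was nearest to ALB (albumin; r = 0.996, 0.0663 to 0.156 FPKM), DCN to AXIN1 (r = 0.992), DPP4 to TET3 (r = 0.998) and CD34 to TMEM177 (r = 0.992). With 6 pigs such values are common: 161 of the 11475 genes had r above 0.95 with PDGFRA, 174 with PDGFRB, and 12 with MFAP5, the fewest of the 9. They are descriptions, with no test.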
